A study of Mus musculus with 36 samples.

Results

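The genes described here are 35 transcripts that are known from microglia, the resident macrophages of the brain, read in libraries that the labels call neurons. They were taken from a fixed list of symbols, and 35 of 35 were found among the 55359 genes of the deposited table. The list was chosen with earlier results of these data known, so it is not independent of them. All 35 were above 0 in at least 1 of the 36 cells, and 34 had a value of 1 or more in 25% or more of them.

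The study sequenced single cells of the mouse midbrain that descend from 1 radial glia progenitor, marked on embryonic day 12. All cells carried the genotype M11GTTG, a pair of MADM cassettes on chromosome 11 in which recombination in a dividing cell leaves its daughters in different colours. The recombinase came from Fz10-CreER in 22 cells of 11 clones and from Sox2-CreER in 14 cells of 7 clones, so that each of the 18 clones has 2 sequenced cells. The tissue labels are sSC (22 cells), dSC (12) and PAG (2), taken to mean superficial superior colliculus, deep superior colliculus and periaqueductal grey. The lines had a mixed C57/Bl6, FVB and CD1 background and both sexes were used. There is no unlabelled or microglial control library among these samples. The labels give neither the age of these cells at collection nor the animal of each clone, and how single cells were taken up is not described in the labels beyond its source protocols.

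Microglia arise from yolk sac macrophages and not from the neural progenitors that a MADM clone traces. They survey the tissue with motile processes, sense ATP and chemokines through surface receptors, clear debris and synapses, and make most of the C1q of the brain. Their survival depends on the receptor encoded by Csf1r, and their transcription on the factor PU.1, the product of Spi1.

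The neuron label was checked against 17 neuronal markers, of which each cell had between 13 and 17 at 1 or more. Snap25, a protein of synaptic vesicle fusion, was between 299.8 and 4008 in the cells. Other lineages were present in the same libraries. Astrocyte markers were at 1 or more for 5 to 13 of 13 genes per cell, and oligodendrocyte markers for 5 to 13 of 13, with summed values between 1192 and 31223. Red blood cell genes were at 1 or more for 0 to 5 of 5. The part of RNA from neighbouring or captured cells in the microglial values was not tested, and such RNA cannot be told apart from expression by the labelled cell in these libraries. The read depth is unknown, because the values keep none. The number of genes at 1 or more, used in its place, lay between 2661, in the sSC cell of clone B, and 16769 (median 12058). Values are the authors' exon plus intron signal, scaled to the same sum in every cell. Its name is that of a per-length measure but its formula is not given, so an order of levels between genes holds only if the values are per length.

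The complement genes C1qb and C1qc are neighbours on chromosome 4, and the stretches upstream of their starts are shown because both genes were present in most of the cells and PU.1 is a main factor of macrophage and microglial promoters. The sequences are from RefSeq on GRCm38.p6, given in the direction of the gene, which is the minus strand for both. The C1qb stretch is chr4:136886201-136886450, the 250 bases before its start. The C1qc stretch is chr4:136893066-136893164, the 99 bases of that window that lie outside any annotated exon. Capitals mark the match to a PU.1 motif.
C1qb: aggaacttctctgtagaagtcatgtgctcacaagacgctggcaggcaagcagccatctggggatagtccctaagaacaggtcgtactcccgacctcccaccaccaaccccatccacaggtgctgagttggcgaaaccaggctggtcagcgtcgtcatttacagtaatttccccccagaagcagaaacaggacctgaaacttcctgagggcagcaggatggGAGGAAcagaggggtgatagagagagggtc
C1qc: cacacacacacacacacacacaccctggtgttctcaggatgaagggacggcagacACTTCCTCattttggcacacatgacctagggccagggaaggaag
The motifs searched, on both strands, were GAGGAA and the longer GAGGAAGT, which contains it. C1qb holds GAGGAA on the gene's own strand, 30 bases before the start. C1qc holds the longer motif on the opposite strand, and the GAGGAA part of that match begins, read along the gene, 193 bases before the start. Among members, 24 had an upstream window in the reference table. Some genes have several windows, and each window searched holds the 250 bases before a start, C1qc included. GAGGAA was found in 15 of the 29 windows of these 24 genes and in 23.3% of all 32851 windows. GAGGAAGT was found in 1 of the 29, that of C1qc, and in 2.44% of all windows. A match describes letters and no binding was measured.

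Microglial transcripts were not rare in these neurons. A median of 21.5 of the 35 genes per cell were at 1 or more, with a range from 5 to 35. Counting any value above 0 gave a median of 22 genes, and asking for 10 or more gave 19. In all, 24 of the 35 genes reached 1 in no fewer than 18 of the 36 cells. The median value over cells was above 100 for 7 genes (Ctss, Tyrobp, Fcer1g, C1qa, C1qb, Aif1 and P2ry12), between 0 and 100 for 17 and at 0 for 11. The summed value of the 35 genes lay between 357.5 and 18098 (median 3373), which is 0.0179% to 0.905% of a cell's total with a median of 0.169%.

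**Figure D1:**
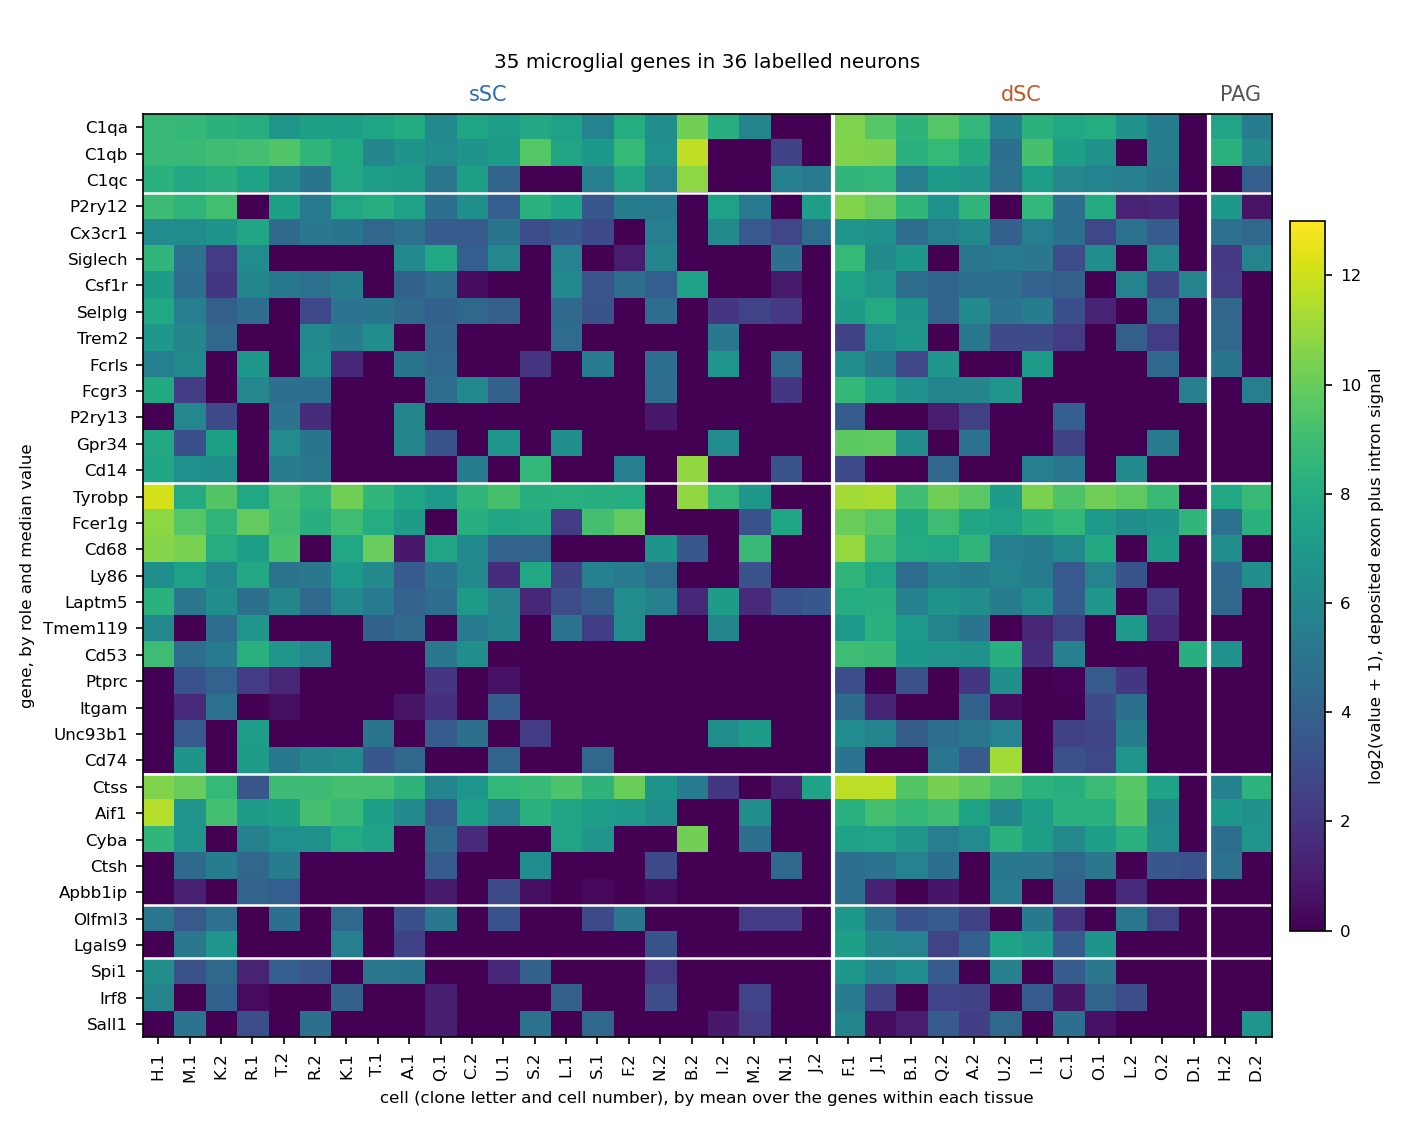
Heat map of the 35 microglial genes (rows, grouped by role and ordered by median) in the 36 cells (columns, named by clone letter and cell number, ordered within sSC, dSC and PAG by the mean over the genes). Colour is log2(value + 1) of the deposited signal, and C1qa, Tyrobp and Ctss are bright in nearly all columns while Ptprc, Itgam and Apbb1ip are dark in most.

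Complement was present in most cells: all 3 C1q genes were at 1 or more together in 27 of 36 cells, and all were below 1 in 1 cell. C1qa, C1qb and C1qc encode the 3 chains of C1q, which starts the classical pathway of complement. C1qa was between 0 and 1194 in sSC cells (median 189.6), between 0 and 1446 in dSC cells (median 299.5), and at 43.3 and 190 in the PAG cells. The ranges of the tissues overlapped almost wholly. C1qb had a median of 167.5 in sSC and 199.1 in dSC, and its highest value, 3464, was in the sSC cell of clone B. C1qc was lower, with medians of 61.5 and 60.8. The log2 ratio of C1qa to C1qb had a median of -0.13 and an SD of 0.99 over the 30 cells in which both reached 10.

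The receptors of homeostatic microglia were also widely found. P2ry12, the ADP receptor that steers microglial processes, reached 1 in 30 cells, with a median of 119 in sSC cells (0 to 540) and 176 in dSC cells (0 to 1468). Cx3cr1, the fractalkine receptor, was at 1 or more in 33 cells but at a lower level, with medians of 22.1 in sSC and 26.9 in dSC. Siglech, a sialic acid binding lectin, was found in 23 cells with a highest value of 424, and Csf1r in 26 cells with a highest value of 174. Tmem119, a membrane protein much used as a microglial marker, was found in 20 cells, in 11 of 22 sSC and 9 of 12 dSC cells. P2ry12, Cx3cr1 and Tmem119 were all at 1 or more in 18 cells, and all below 1 in 2 cells. Selplg, the ligand of P-selectin, was in 28 cells. Trem2, which senses lipids and pairs with the TYROBP adaptor, and Fcrls, an Fc receptor-like protein, were each in 19 cells. Fcgr3, a low-affinity receptor for IgG, was in 18 cells, while Gpr34, a receptor for lysophosphatidylserine, was in 16 and Cd14, a co-receptor for bacterial lipopolysaccharide, in 15. P2ry13, a second ADP receptor, was in 8 cells and was the member that did not pass the filter on low values.

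P2ry12, P2ry13 and Gpr34 each lie within a longer gene on the opposite strand (Med12l for the first pair, Cask for Gpr34). The use of strand in the counting is not given in the sources used here, so reads of those neighbours cannot be told apart from theirs. In all, 12 of the 35 members overlap another annotated gene, and Cx3cr1 with 9 neighbours overlaps the most. Its annotated model spans 168264 bases, and Csrnp1, Gorasp1 and Xirp1 overlap it on its own strand. How shared reads were counted is not given, so reads of its neighbours cannot be told apart from those of Cx3cr1 either.

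The adaptors and other membrane proteins ranged by degrees from widely found to scarce. Tyrobp, the signalling adaptor of TREM2 and related receptors, was in 32 cells, from 0 to 4564 in sSC (median 299.9) and from 0 to 2582 in dSC (median 849), with 212 and 441 in the PAG cells. Fcer1g, the common chain of Fc receptors, was in 31 cells, and was the single member found in all 12 dSC cells, where it ran from 89.1 to 1063. In sSC it was in 17 of 22 cells, from 0 to 1771. Laptm5, a lysosomal membrane protein, was the single member found in all 22 sSC cells, and in 10 of 12 dSC cells. Cd68, the lysosomal protein macrosialin, was in 25 cells and reached 1945. Ly86, a partner of a Toll-like receptor relative, was in 30. Cd53, a leukocyte tetraspanin, was in 8 of 22 sSC and 9 of 12 dSC cells, with medians of 0 and 106. At the other end Ptprc, which encodes the pan-leukocyte phosphatase CD45, was in 11 cells and Itgam, the integrin chain CD11b, in 9. Itgam reached 28.9 at most, and Ptprc 88.5 in the dSC cell of clone U and 16.3 in the next.

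Of the enzymes and cytoskeletal proteins, Ctss, the macrophage protease cathepsin S, had the highest median of the 35 genes, 400.4, and was at 1 or more in 34 cells. It ran from 0 to 1459 in sSC (median 369) and from 0 to 3351 in dSC (median 657). Aif1, which encodes the actin-binding marker IBA1, was in 31 cells, with medians of 134 and 304. Cyba, a subunit of the phagocyte oxidase, was in 13 of 22 sSC and 11 of 12 dSC cells, with medians of 22.8 and 132. Ctsh, cathepsin H, reached 1 in 8 sSC and 10 dSC cells, and Apbb1ip, an adaptor of integrin activation, in 9 cells of 36. Of the remaining adaptors and membrane proteins, Unc93b1, a chaperone of Toll-like receptors, was in 17 cells and Cd74, the invariant chain of antigen presentation, in 16. Of the secreted proteins, Olfml3 was in 21 cells at a median of 4.2 and Lgals9, galectin-9, in 14.

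The 3 transcription factors were low. Spi1 was in 18 cells (median 0.716, highest 120), Irf8 in 14 (highest 60.1) and Sall1, a repressor that keeps microglial identity, in 14. The highest Sall1 value, 112, was in a PAG cell. Low levels of factor transcripts beside high levels of C1q and Tyrobp held in most columns of the heat map of values by cell.

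A few cells carried much of the signal, and the 4 with the highest sums held 40.4% of all member values. The dSC cell of clone F had all 35 genes at 1 or more and a sum of 18098. It held the highest value of 10 members, among them C1qa, P2ry12, Cd68, Csf1r and Spi1. The sSC cell of clone H had 26 genes and a sum of 17197, led by Tyrobp at 4564 and Aif1 at 2968, with 6180 genes detected in it. The dSC cell of clone J had 30 genes and a sum of 14721. At the other end, the sSC cell of clone J had 5 genes and a sum of 405, and the dSC cell of clone D had 5 genes and 779. The highest and one of the lowest cells thus came from the same tissue, and clone J held both a very high and a very low cell.

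**Figure D2:**
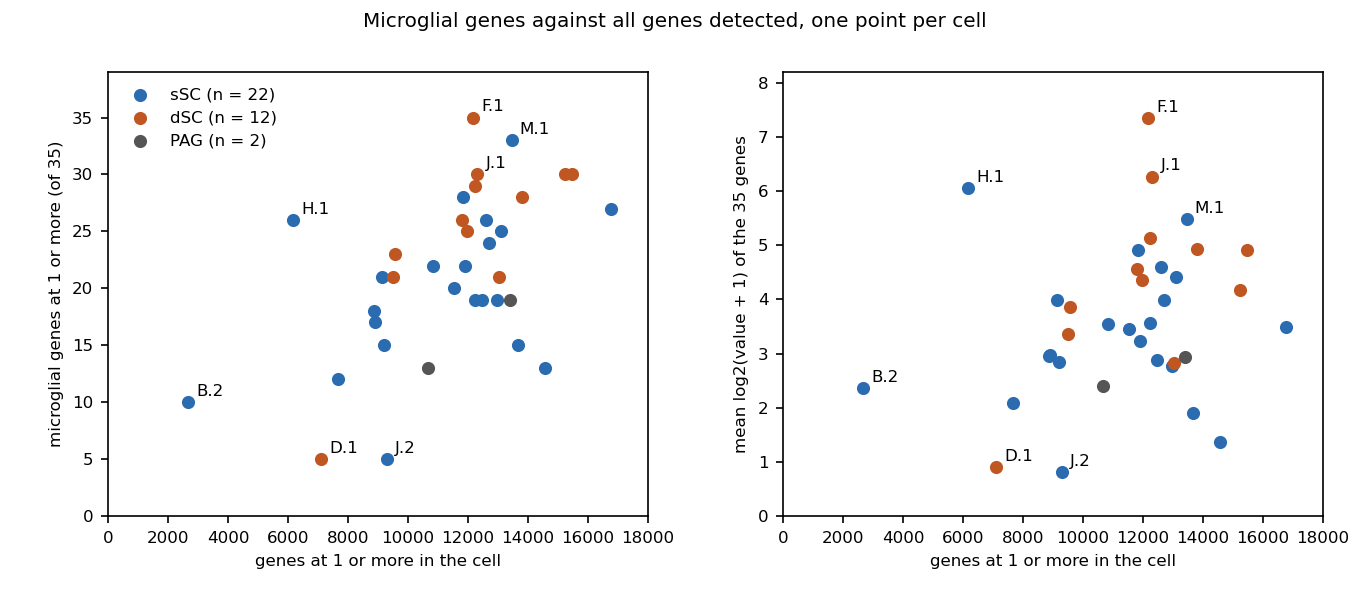
Each point is a cell, coloured by tissue. The left panel plots the number of the 35 microglial genes at 1 or more and the right panel their mean log2(value + 1), both against the number of all genes at 1 or more in the cell, with 7 cells named. Clone H's sSC cell (H.1) sits high at 6180 genes while D.1 and J.2 sit lowest.

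The number of microglial genes detected was related to the number of all genes detected, and their level less so. Over the 36 cells the number of members at 1 or more followed the number of all genes at 1 or more with a Pearson r of 0.54 and a Spearman rho of 0.48. For the mean log2 level of the members both were 0.25. With Snap25 the mean level had r = -0.32 and rho = -0.41, and with the mean neuronal marker level r = 0.04. It had r = 0.20 with astrocyte markers, 0.06 with oligodendrocyte, 0.16 with endothelial and mural and 0.14 with red blood cell markers. Split by tissue, red blood cell markers had rho = 0.58 over 22 sSC cells and -0.34 over 12 dSC cells, and endothelial and mural markers 0.47 and -0.34. The number of members had r = 0.44 with all genes detected in sSC and 0.76 in dSC. For the mean level the same r was 0.06 in sSC and 0.53 in dSC. With Snap25 the mean level had r = -0.10 in sSC and -0.63 in dSC. These are descriptions over cells that share libraries, clones and depth differences, and no p is given.

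The members varied together over cells. The median Spearman correlation over the 561 pairs of the 34 genes that passed the filter was 0.30, with 96.1% of pairs above 0, beside a median of 0.0933 over pairs of all genes tested. With the number of detected genes partialled out it was 0.30 beside 0.0225. In sSC cells alone it was 0.22 beside 0.113, and in dSC cells alone 0.36 beside 0.0708. Other lineage lists had medians of the same order: 0.38 for oligodendrocyte, 0.26 for astrocyte and 0.77 for the 4 red blood cell genes tested, against 0.12 for neuronal markers. The closest pairs were Cd53 with Fcgr3 (0.78), C1qa with C1qb (0.73), Itgam with Ptprc (0.72) and Aif1 with Ctss (0.70). Ctss had the highest median correlation with the other members (0.43) and Cd14 the lowest (0.08). Without the sSC cell of clone B and the dSC cell of clone U, described next, the median over all pairs was 0.31. Leaving out the first of these alone gave 0.30 beside 0.0672 over all genes. The correlations rest on few cells and many zeros, and no test was made of them.

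Outside the list, the gene whose level over the 36 cells was most like the members' mean was Cst3, cystatin C, a secreted protease inhibitor (Pearson r = 0.76, median 5494, at 1 or more in all 36 cells). Ctsz, cathepsin Z, came next (r = 0.70, 28 cells). The other 13 of the 15 closest were Rnaset2a, Ppp1r14b, Pld4, Plcb3, Ppp1r18, Gm49673, Tmsb4x, Gng5, Gm49192, Gngt2, Xylt1, Ptp4a2 and Sparc, with r between 0.59 and 0.68. Cst3, Ctsz and Sparc were in the lists of further genes used here. Of the 15, 13 stayed when the number of detected genes was partialled out, and Ctsc and Gm7332 took the remaining places.

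The sSC cell of clone B differed from the others in which members it carried. It had the highest C1qb (3464), C1qc (1750), Cd14 (1920) and Cyba (1222) of all cells, with C1qa at 1194, Tyrobp at 1870 and Csf1r at 169.9. Yet 25 members were at 0, among them P2ry12, Cx3cr1, Tmem119, Aif1 and Fcer1g. Its 5 highest members held 87.8% of its member sum, beside 58.5% in the dSC cell of clone F. The log2 ratio of C1qa to Ctss was 4.86 in it, the highest of 30 cells, against a median of -1.29. In the same library 4 of the 10 markers of border-associated macrophages were at 1 or more and 6 were at 0 (Lyve1, F13a1, Ms4a7, Stab1, Folr2 and Clec4n). Of those present, Pf4, a chemokine, was 11233 beside 602 in the next cell, Mrc1, the mannose receptor, 871 beside 220, and Cbr2, a carbonyl reductase, 595 beside 114. Cd163, also present, was nearly level with the next cell, at 52.9 beside 51.0. With 2661 genes at 1 or more and Snap25 at 299.8, it had the lowest value of all cells in both. An sSC cell of clone R had 7 of the 10. The 10 macrophage markers summed to between 0 and 12752 over cells with a median of 16.3, and Clec4n was at 0 in all. Their part in the other cells' member values was not tested.

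The dSC cell of clone U had another set. Cd74 was 2306 there beside 138 in the next cell, Ptprc 88.5 beside 16.3, and Lgals9 had its highest value of 182. Markers of B cells were found in it, with Cd79b at 1563, Cd79a at 539 and Ms4a1 at 68.7, and Ms4a1 was below 1 in the other 35 cells. P2ry12, Tmem119, Gpr34 and Cd14 were at 0 in it. The 13 lymphocyte markers summed to a median of 0.315 over all cells with a highest value of 2353, and Cd3d, Cd8a and Nkg7 were at 0 in every cell. The 10 monocyte and neutrophil markers summed to a median of 2.85 with a highest value of 376, and Cd177 was at 0 in every cell.

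**Figure D3:**
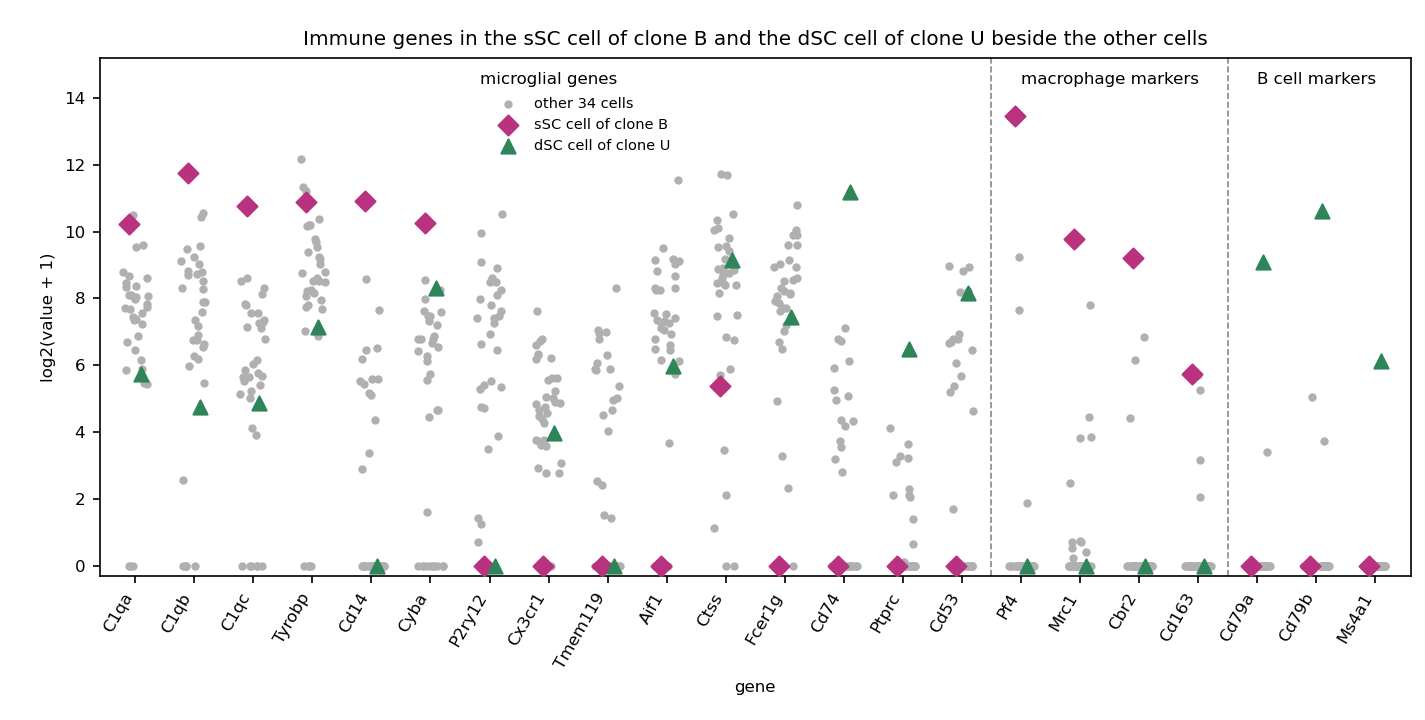
Values of 15 microglial genes, 4 macrophage markers and 3 B cell markers as log2(value + 1), with the sSC cell of clone B (diamonds), the dSC cell of clone U (triangles) and the other 34 cells (grey points, spread sideways for visibility). Pf4 and Mrc1 stand out in the clone B cell, at 11233 and 871, and Cd79b and Cd74 in the clone U cell, at 1563 and 2306. The macrophage markers drawn are those of the list that were at 1 or more in the clone B cell. Lyve1, F13a1, Ms4a7, Stab1, Folr2 and Clec4n, at 0 in it, are not drawn. The B cell markers drawn are ones found in the clone U cell.

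Between the tissues the members were mostly lower in sSC, and no single member passed the test. sSC cells had a median of 19.5 members at 1 or more (5 to 33) and dSC cells 27 (5 to 35), and 11 of 22 sSC cells and 11 of 12 dSC cells had at least 20. The PAG cells had 13 and 19 and were not tested. In the fit over 16 sSC and 11 dSC clone means, 0 of 34 members had an adjusted p under 0.05 with limma, where 0% of 14613 genes did. Of the members 32 had a lower mean in sSC, beside 67.3% of all genes, and their median difference in log2(value + 1) was -1.14, beside -0.31 over all genes. At an unadjusted p under 0.05 there were 7 members, all lower in sSC, where 4.49% of all genes were lower at that level. They were Lgals9, Ctsh, Cd53, Cyba, Fcer1g, Ptprc and Unc93b1. The smallest limma adjusted p among members was 0.457, for Lgals9. Without clone D, whose dSC cell had 5 members, 11 members were at that unadjusted level, where 906 of 14565 genes were lower at it.

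By role, all 11 adaptors and membrane proteins were lower in sSC, with a median difference of -1.21, and all 5 enzymes and cytoskeletal proteins were, with a median of -1.66. The C1q genes had a median of -0.43, and C1qb was at -0.03 (SE 1.16). Of the 10 receptors 8 were lower, with a median of -0.75, while P2ry12 and Cd14 were higher in sSC by 0.09 (SE 1.09) and 0.77 (SE 1.07). None of these role groups was tested as a set. Some of these directions turned with the scaling: C1qb was at 0.05 with a pseudocount of 0.1 and at 0.16 with detected genes as a covariate, Laptm5 was at 0.41, 0.03 and 0.22 with that pseudocount, quantile normalization and the covariate, and P2ry12 was at -0.28 after quantile normalization.

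The 9 clones with 1 cell in each tissue (A, B, C, F, I, J, L, Q and U) allow the tissues to be compared within an animal, since the cells of a clone descend from 1 progenitor. In 9 of 9 clones the dSC cell had more members at 1 or more and a higher mean log2 level. The number of members was 5 in sSC and 30 in dSC for clone J, 15 and 35 for clone F, 10 and 29 for clone B, and 12 and 25 for clone I. In clones A, C and U it was 22 and 30, 20 and 30, and 22 and 26. The gap was small in clone L (18 and 21) and clone Q (27 and 28). The difference in mean log2 level ran from -0.41 in clone L to -5.46 in clone J, with a median of -1.44. The summed value was higher in the dSC cell of 8 clones, and lower in clone B, where the sSC cell summed to 11644 and the dSC cell to 4483.

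Other measures moved in the same clones. The dSC cell had more genes at 1 or more in 7 of 9 clones, all but Q and U, and a higher Snap25 in 4 of 9. The mean level of other lists was higher in the dSC cell in 4 of 9 clones for astrocyte, neuronal and border-associated macrophage markers, 5 for oligodendrocyte markers, and 6 for endothelial and red blood cell markers. For red blood cell markers the median difference was -1.33, near that of the members. The part of detection and of these markers in the tissue difference of the members was not tested.

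**Figure D4:**
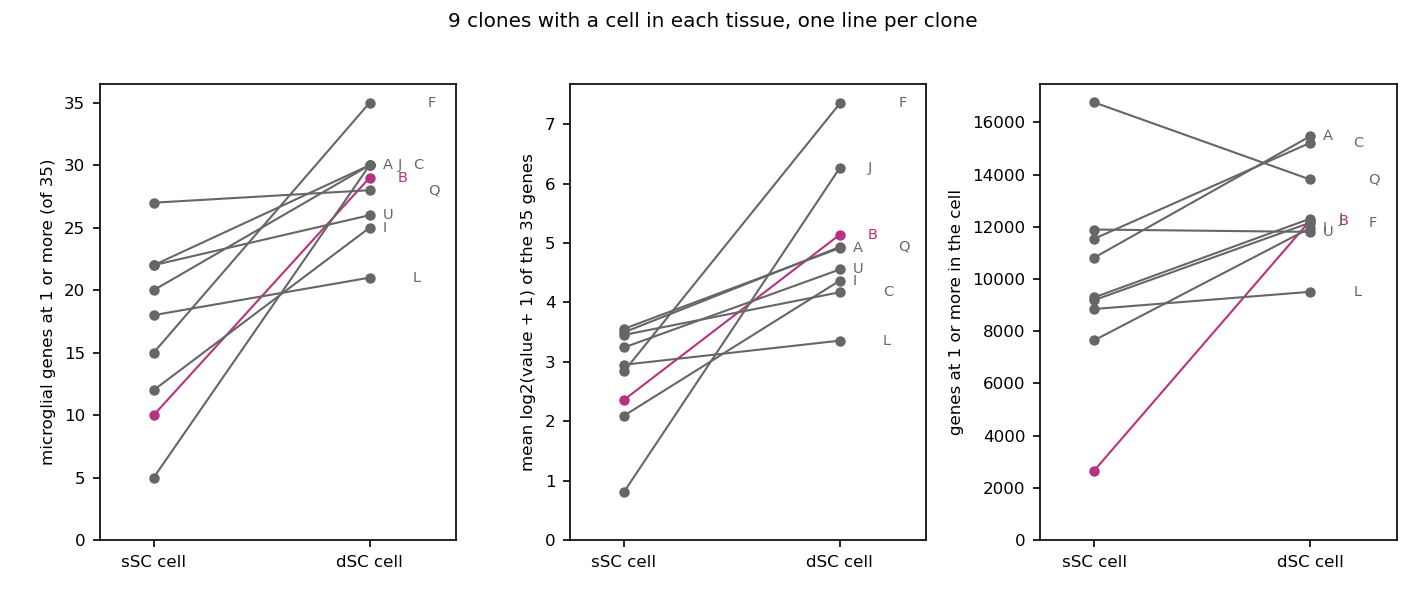
For the 9 clones that have cells of both tissues, lines join the sSC and dSC cell of a clone, named by its letter (clone B in colour). The panels show the number of the 35 genes at 1 or more, their mean log2(value + 1), and the number of all genes at 1 or more: the number and the mean of the 35 genes are higher in the dSC cell in 9 of 9 clones, and all genes detected in 7 of 9.

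With clone as a block in the limma fit, 0 of 34 members passed, where 0.00684% of the 14613 genes did (1 gene, Lst1). At an unadjusted p under 0.05 there were 18 of 34 members, all lower in sSC, where 8.55% of all genes were. The members varied together over cells (median Spearman correlation 0.30, beside 0.0933 over all genes). Their counts in the tissue fits and between siblings are therefore not counts of independent genes, and a few cells can move many members. In this blocked fit 34 of 34 members had a negative difference, beside 76.9% of all genes, and the median was -2.13 beside -0.66. Adjusted p ran from 0.415 to 0.972. With the number of detected genes added to the block, the median was -2.12 beside 0.07 over all genes. There 31 of 34 members were negative, beside 47.6% of all genes. At an unadjusted p under 0.05 there were 11 members, where 319 of 14613 genes were lower. Without clone F, 11 members were at an unadjusted p under 0.05 with the block, where 1176 of 15003 genes were lower at that level. Without clone B the blocked median was -1.96 beside -0.36, with 16 members at that level, where 882 of 15070 genes were lower. Without the block, the same covariate gave -0.93 beside 0.07 and quantile normalization -0.80 beside -0.01. The covariate and quantile normalization act on the shift of all genes itself, so no conclusion on detection is drawn from these medians.

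**Figure D5:**
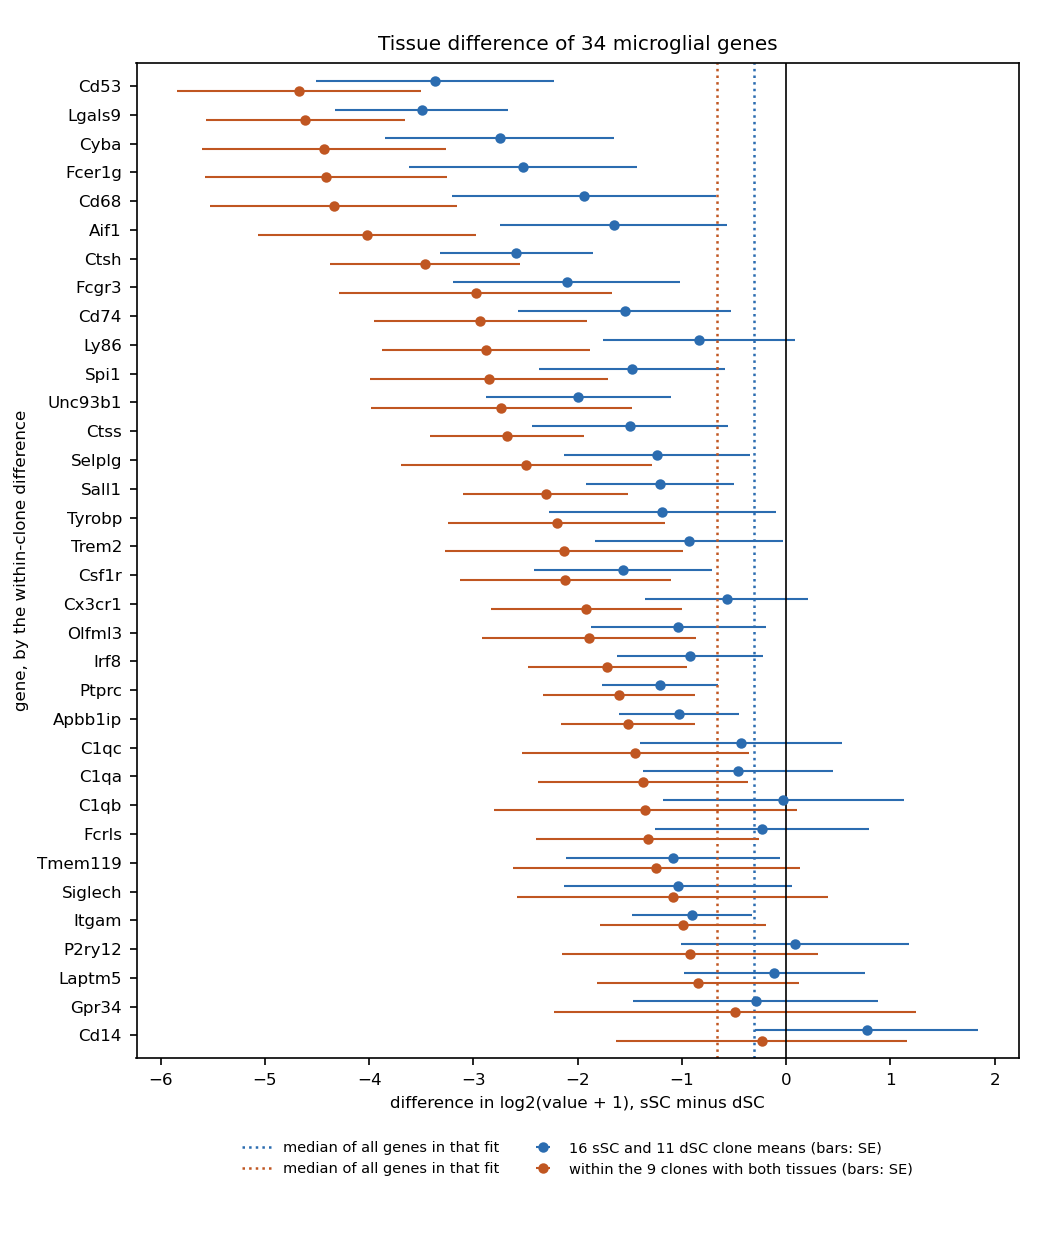
Difference in log2(value + 1), sSC minus dSC, of the 34 tested microglial genes, over 16 sSC and 11 dSC clone means and within the 9 clones with both tissues (block), with standard errors as bars. Dotted lines mark the median of all 14613 genes in each fit, -0.31 and -0.66, and most members lie to the left of them while none passed an adjusted p of 0.05.

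Counted gene by gene, the dSC cell was higher in at least 7 of the 9 clones for 14 of 34 members, where 12.1% of all genes were, and the sSC cell was for 0 of 34, where 2.46% of all genes were. Ctss was higher in the dSC cell of 9 of 9 clones. It was 3.3 and 335 in clone I, 177 and 3351 in clone J, and 677 and 756 in clone L (sSC and dSC), a blocked difference of -2.68 (SE 0.74, limma adjusted p = 0.442). Aif1 was also higher in 9 of 9, with 0 in the sSC cells of clones B, I and J beside 409, 154 and 565 in their dSC cells (-4.02, SE 1.05, limma adjusted p = 0.442). In clone U it was nearly level, at 52.5 and 61.9.

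Lgals9 was at 0 in 8 of these 9 sSC cells and at 4.6 in that of clone A, while the dSC cells had 5.4 to 182 in 8 clones and 0 in clone L. Its blocked difference was -4.61 (SE 0.96, limma adjusted p = 0.415). Lgals9 passed the filter only through its dSC cells, which favoured this direction. Fcer1g was higher in the dSC cell of 8 clones, with 0 in the sSC cells of B, I, J and Q (-4.41, SE 1.16, adjusted p = 0.442), and so was Cyba (-4.43, SE 1.17, same adjusted p). Cd53 differed by -4.68 (SE 1.17), the most of all members, and was higher in the dSC cell of 7 clones. None of these passed the threshold.

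Within clones the C1q genes went in both directions. C1qa was higher in the dSC cell of 6 clones, from 204 and 215 in clone C to 262 and 1446 in clone F and 0 and 768 in clone J, and lower in B (1194 and 351), L (175 and 102) and U (150 and 52.2), a blocked difference of -1.38 (SE 1.00, limma adjusted p = 0.677). P2ry12 was higher in the dSC cell of 6 clones too. Tyrobp was higher in the dSC cell of 7, with B and U the other way (1870 and 524, 601 and 139). Gpr34 was higher in the dSC cell of 4 clones and in the sSC cell of 5, with a blocked difference of -0.49 (SE 1.73). Cd14 was higher in either cell in 3 clones each and at 0 in both in the rest. Of the transcription factors, Sall1 was higher in the dSC cell of 7 clones and Spi1 and Irf8 in 6, with blocked differences of -2.31, -2.85 and -1.71 and adjusted p of 0.478, 0.512 and 0.537.

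Cells of 1 clone and tissue could differ widely in the members. In clone M the 2 sSC cells had 33 and 15 members and mean log2 levels 3.58 apart, while in clone S they were 0.09 apart. In the test of a clone effect, limma's moderated F test with tissue as a covariate, 0 of 35 members passed, where 0.0198% of 15132 genes did. At an unadjusted p under 0.05 there were 6 (Tyrobp, Sall1, Cd68, Fcrls, Cd74 and Cd53), beside 7.8% of all genes, and the smallest limma adjusted p was 0.478 for Tyrobp.

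Between the drivers no member passed in sSC. Over 11 Fz10-CreER and 5 Sox2-CreER clone means, limma called 0 of 30 members and 0% of 14320 genes. One member, Olfml3, had an unadjusted p under 0.05 (-2.55, SE 1.04, adjusted p = 1.00), beside 4.1% of all genes. For the tissue difference between drivers, tested as an interaction, 0 of 34 members passed, where 0.00684% of 14613 genes did. There 1 member, Trem2, was at an unadjusted p under 0.05 (-4.38, SE 1.79, limma adjusted p = 0.792), beside 5.78% of all genes. With clone as a block in the interaction, 0 of 34 members and 0% of genes passed, and 0 members were at an unadjusted p under 0.05, beside 4.13% of all genes. The median member interaction was -0.88 without the block, with 29 of 34 negative, beside -0.80 and 71.5% negative over all genes. With the block it was 1.00, with 25 positive, beside -0.76 and 65.8% negative over all genes. The direction of the members thus turned with the block, and that of all genes did not. Of the clones with both tissues, 7 carried Fz10-CreER and 2 Sox2-CreER.

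Further lists hold genes around the members, and none of their genes passed over all genes tested in either tissue fit with limma. Over all genes 67.3% were lower in sSC without the block (median -0.31) and 76.9% with it (median -0.66), and at an unadjusted p under 0.05 4.49% and 8.55% were lower, which is the background of these counts. The complement list holds the 3 C1q genes, the TYROBP and ITAM and the lysosomal lists hold 3 members each, the disease-associated list 2 and the antigen presentation list 1, so their counts partly repeat those of the members. In the complement list 7 of 8 tested genes were lower in sSC, with a median of -0.47 and 0 at an unadjusted p under 0.05, and with the block 8 of 8, with a median of -1.26 and 1 at that level, Cfp, the stabiliser of the alternative convertase (-2.39, adjusted p = 0.555). In the list of TYROBP and ITAM signalling 11 of 12 were lower (median -0.91), and 12 of 12 with the block (median -1.08). Its smallest p outside the members were those of the phosphatase Ptpn6 (-1.62) and, with the block, the kinase Lyn (-1.98). Of 25 further microglial genes 20 were lower, and 21 with the block, with medians of -0.48 and -1.47. Vsir differed by -1.22 and -2.13 in these fits. Of 20 lysosomal proteases and membrane proteins 14 were lower, and 18 with the block, with medians of -0.39 and -1.63, and the count without the block was near the share of all genes.

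The remaining lists were mixed. Of 7 ligands of microglial receptors 2 were lower without the block and 4 with it (medians 0.13 and -0.11), and Csf1 and Il34, which activate the Csf1r product, were at -0.65 and -1.46 with it. Of 6 antigen presentation genes 3 and 5 were lower, with H2-DMa at -2.85 with the block. Of 10 genes of disease-associated microglia 5 and 5 were lower (medians 0.04 and -0.14). Of 14 genes linked to activation of microglia during cell isolation 13 and 14 were lower, with medians of -1.19 and -1.68. Among those, Ccl4, a chemokine, differed by -3.66 (SE 1.26) and -5.09 (SE 1.33), and Ccrl2 by -2.18 and -2.92, with limma adjusted p of 0.933 for both without the block and of 0.442 and 0.457 with it. Lst1, a leukocyte gene outside the list, followed the members' mean over the 12 dSC cells (Spearman rho = 0.77) more than over the 22 sSC cells (rho = 0.07), with no test of that difference. Its median was 179 in dSC cells and 0 in sSC cells, so the sSC value rests on many ties at 0. Lst1 was named because it had the smallest p between these tissues.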

How the data were processed

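Per the labels' protocols, polyadenylated RNA of each of the 36 cells was made into 1 library with a SMART-Seq Single Cell PLUS kit. The submitters' processing notes name GRCm39, STAR 2.7.9a and R 4.0.3. How reads were counted, with which annotation, whether by strand and by what formula is not given in the sources used here. Per gene and cell the deposited values are an exon plus intron signal, called TPM by the authors. Each cell's values sum to 2000000, which plain TPM would not, so the unit was taken to be a normalised signal. The log-scale tests planned for TPM were kept. Depth is unknown and no counting interval is given. A value of 0 can be a failed capture. Symbols came from GENCODE M21 by gene identifier (52083 of 55359 genes), which also gave the overlaps, and motif windows from RefSeq.

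Values were taken as log2(value + 1), which understates differences of low genes. Cells of a clone and tissue were averaged. Genes that reached 1 in 25% of cells or more were tested two-sided with limma 3.58.1 under R 4.3.3, using robust eBayes with a trend, with Benjamini-Hochberg adjustment over all genes and a threshold of 0.05. Correlations and figures used Python 3.11.15, pandas 2.3.3, numpy 2.4.6 and matplotlib 3.10.9. The tissue fit without the block was run on simulated data with independent, normally distributed values per gene. The simulation had no paired clones, excess of zeros or correlated genes, so it does not cover these features of the data or the block. The clone pairs the tissues because its cells share an animal. Deviations of paired cells correlated between -0.02 and 0.07, with 0 of 9 pairs above 0.1. The labels name no animals, so p-values measure how clones vary, and neither animal nor day can be told apart from clone. Alternatives were pseudocounts of 0.1 and 10, no filter, quantile normalization, the block, detected genes as a covariate, and leaving out clones or the clone B library. Named genes are all members, the 2 genes of smallest p per list and the 15 most similar genes, with others named after their values were seen. Some genes that this rule would name are not reported here. The members and lists were chosen with earlier results of these data known.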

Additional observations from a re-analysis of the deposited data

Results flagged for a closer look

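The number, mean log2 level and summed value of the members were checked for a lone extreme value in sets of 4 to 10 clones. Of these 12 checks, 2 had one, both in the summed value, which was not logged. The measures share sets of clones, so the checks are not independent. The rate of about 1 in 20 by chance holds for normally distributed values and was not shown to hold here. In dSC clones with Fz10-CreER (n = 7) the summed member value of clone J was 14721, with the next at 4808 and the lowest at 2556. In sSC clones with Sox2-CreER (n = 5) that of clone H was 17197, with the next at 3666 and the lowest at 614.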

How the results depend on the processing

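No member passed an adjusted p of 0.05 under any alternative run for the tissues, drivers, interaction or clone effect, and 25 of 34 members kept their direction between the tissues in all settings. The number at an unadjusted p under 0.05 between the tissues was 7, and 18 with the clone as a replicate block, 11 with the block and detected genes as a covariate and 16 with the block without clone B (the last setting chosen after seeing the data). Over all genes, 656, 1250 and 319 of 14613 and 882 of 15070 were lower at that level, in the same order. Leaving out 1 clone gave 5 (without B, F or J) to 11 (without D), and with the block, chosen after seeing the data, 11 (without F) to 20 (without Q). Over all genes, 454 of 15070 were lower at that level without B, 614 of 15003 without F, 551 of 14993 without J and 906 of 14565 without D. With the block, 1176 of 15003 were lower without F and 1458 of 14689 without Q, so the background rose too. The median member difference was -1.44 (without D) to -0.81 (without J), and with the block -2.39 to -1.62.

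Single members changed sign. C1qb was at 0.0507 with a pseudocount of 0.1 and 0.16 with the covariate. P2ry12 was at -0.29 with a pseudocount of 10, -0.28 after quantile normalization and -0.92 with the block. Fcrls was at 0.00854 with the covariate. With block and covariate Siglech was at 2.20, Gpr34 at 2.16 and Cd14 at -3.29. With the block Cd14 was at -0.24, and without clone B as well at -1.63, with Gpr34 at 0.25. Laptm5 was at 0.41 with a pseudocount of 0.1, 0.0321 after quantile normalization, 0.22 with the covariate and 0.12 without the clone B library.

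Leaving out each clone, the ranges were -1.77 to 0.22 for C1qa, -2.47 to 0.79 for C1qb, -2.28 to 0.0709 for C1qc, -1.63 to 1.37 for Cd14, -2.13 to 0.30 for Fcrls, -1.41 to 0.68 for Gpr34, -1.36 to 0.29 for Laptm5 and -1.84 to 0.75 for P2ry12, blocked fits included. The median driver difference was -1.04 to 0.0125, the latter without clone H. The causes were not tested. Depth is unknown, so absence at 0 is not shown.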
